A study of Homo sapiens with 22 samples.

Results

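VASH1, LXN and RHOBTB1 are 3 protein-coding genes whose RNA was lower with each of 3 ways of lowering SMYD3 in HN-6 cells. They were chosen from 64706 gene names in 4 expression tables because they were lower in the SMYD3 knockout clone, with the SMYD3 siRNA and with the SMYD3 antisense oligonucleotide, each against its own control. Those 3 comparisons therefore describe the 3 genes and are given without a test of them, whereas a UHRF1 siRNA comparison was not used in the choice and was tested.

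HN-6 is an established line from a human squamous carcinoma of the head and neck, and RNA was measured by sequencing in 22 libraries that form 8 groups. All groups, the controls included, came from cells kept with interferon-β (1000 U/ml, 24 h), and no group shows them without interferon. The parental line (3 libraries) was the control of SMYD3 KO 5-3 (3 libraries), which is 1 knockout clone. A negative control siRNA, siNC (3 libraries), was the control of si1SMYD3 (3 libraries), PBS (2 libraries) was the control of the antisense oligonucleotide ASO081 (2 libraries), and a separate siNC group (3 libraries) was the control of siUHRF1 (3 libraries). Knockdown lasted 72 h, each knockdown used 1 siRNA or 1 oligonucleotide, and the oligonucleotide was set against PBS rather than a control oligonucleotide. The siNC groups are called the SMYD3-set siNC and the UHRF1-set siNC here.

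VASH1 (vasohibin 1) is a tubulin carboxypeptidase that works with the small partner SVBP to remove the last tyrosine of α-tubulin, and it is also known as an inhibitor of blood vessel growth made by endothelial cells. LXN (latexin) inhibits some metallocarboxypeptidases and is a relative of RARRES1, its neighbour in the genome. RHOBTB1 carries BTB domains that bind the CUL3 ubiquitin ligase. SMYD3 is a lysine methyltransferase, and UHRF1 recognises hemimethylated DNA and guides maintenance methylation.

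In the deposited tables (hg38), VASH1 lies on chromosome 14 from 76761468 to 76783015 on the plus strand, LXN on chromosome 3 from 158645822 to 158672648 on the minus strand, and RHOBTB1 on chromosome 10 from 60869438 to 61001440 on the minus strand. The 250 bases just upstream of each of those starts are shown because the 3 genes moved together and because SMYD3 has been described to bind CCCTCC. The sequences are from RefSeq (GRCh38.p14), written 5′ to 3′ on the strand of the gene, with capitals marking CCCTCC or its reverse complement GGAGGG. All 3 genes were matched.
VASH1, chr14:76761218-76761467, plus strand: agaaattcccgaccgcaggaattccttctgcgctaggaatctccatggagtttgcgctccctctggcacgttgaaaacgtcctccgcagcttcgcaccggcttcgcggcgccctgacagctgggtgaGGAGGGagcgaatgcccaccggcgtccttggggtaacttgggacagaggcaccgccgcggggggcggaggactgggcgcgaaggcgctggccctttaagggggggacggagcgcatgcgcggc
LXN, chr3:158672649-158672898, minus strand: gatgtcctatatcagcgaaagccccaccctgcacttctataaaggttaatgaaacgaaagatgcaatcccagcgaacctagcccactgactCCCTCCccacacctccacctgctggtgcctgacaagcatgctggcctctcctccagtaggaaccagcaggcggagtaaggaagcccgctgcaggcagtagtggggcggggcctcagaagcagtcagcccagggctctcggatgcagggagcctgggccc
RHOBTB1, chr10:61001441-61001690, minus strand: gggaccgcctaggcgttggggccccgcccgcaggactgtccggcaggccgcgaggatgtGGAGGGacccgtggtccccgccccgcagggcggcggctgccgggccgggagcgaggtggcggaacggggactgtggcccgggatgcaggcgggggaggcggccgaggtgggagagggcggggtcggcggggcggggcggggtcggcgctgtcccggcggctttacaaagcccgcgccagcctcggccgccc

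The search covered both strands of windows of 300 bases, from 250 before to 50 after the start. It used 8 motifs: CCCTCC (described for SMYD3), GGGCGG (Sp1 box), CCAAT (NF-Y box), TTTGAA (cell cycle homology region), the interferon-stimulated response element, TTCNNNGAA (STAT site), TGANTCA (AP-1) and CACGTG (E-box). CCCTCC had 1 match in the VASH1 window, beginning 123 bases upstream of the start, 1 in the LXN window at 159 bases and 1 in the RHOBTB1 window at 191 bases. RHOBTB1 has 3 further annotated starts, and the windows of all 4 starts held the motif, but so did 45.71% of all 35116 windows of this length. GGGCGG was present 2 times for VASH1, 1 time for LXN and 7 times for the window of RHOBTB1 printed above, against 44.95% of all windows with at least 1. The interferon-stimulated response element, STAT and AP-1 letters were not found in any of the 6 windows, and 3.574%, 7.657% and 7.709% of all windows hold them. None of the matches overlapped a match of another motif. The windows differ in CpG content: VASH1 has 32 CpG in 300 bases and LXN has 9, where the median window has 14. RHOBTB1 has 42 in the window of the start printed above and 12, 15 and 32 in those of its further starts.

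Each library held between 24783605 and 62921144 reads in genes. SMYD3 RNA, the check of the labels, was lower in its 3 comparisons, with means of 9.82 against 2.80 CPM in the knockout, 15.1 against 2.85 with the siRNA and 21.5 against 3.73 with the oligonucleotide. CPM is the read count of a gene relative to its library total, scaled with TMM factors, and the control mean is given first. Squamous epithelial markers summed to at least 1273 CPM in every library, with 6 to 8 of 8 markers at a mean of 1 CPM or more. EPCAM and CDH1 made up most of the summed means in each group, whereas KRT14 averaged only 0.316 to 1.68 CPM. Mitochondrial genes took 14.9% to 15.7% of parental reads and 4.82% to 4.88% of knockout reads, and their part in the values of VASH1, LXN and RHOBTB1 was not tested. Tables were made separately, so a level set across tables also carries the difference between tables.

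VASH1 was low but readily counted in the control groups. In the parental libraries it stood at 2.64, 2.15 and 3.28 CPM, and in the knockout clone at 0.178, 0.313 and 0.341 CPM. The highest knockout library was below the lowest parental one. The log2 fold change was -3.14 ± 0.27 (SE, n = 3 and 3, on the scale of log2 of the deposited value plus 1), and these knockout levels rest on only 6 to 14 reads per library. With the SMYD3 siRNA VASH1 went from 3.71, 3.44 and 2.77 CPM to 1.28, 1.22 and 1.27 CPM, a log2 fold change of -1.39 ± 0.16 (SE, n = 3 and 3). With the oligonucleotide it went from 5.80 and 5.78 CPM to 2.72 and 2.31 CPM, a log2 fold change of -1.20 ± 0.15 (SE, n = 2 and 2). In both knockdowns every treated library was below every control library. Separation of that kind was common in these data: 44.2% of the genes tested in the knockout, 29% with the SMYD3 siRNA and 31.2% with the oligonucleotide had every treated library below every control. Called lower at an adjusted p under 0.05 were 42.5% of 16950 genes in the knockout, 24.4% of 18965 with the siRNA and 10.3% of 18233 with the oligonucleotide, and nothing is read from the members' own calls against these shares, since the calls chose them.

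LXN had few reads throughout. The 3 parental libraries held 10, 21 and 33 LXN reads (0.383, 0.564 and 0.853 CPM), and all 3 knockout libraries held 0. The parental libraries thus varied by more than 2-fold among themselves while no knockout library had a read. Taking 3 reads over the knockout group as the limit that a count of 0 allows, LXN was at least 21.9-fold lower in the clone. With the SMYD3 siRNA the control libraries held 19, 9 and 43 reads (0.394, 0.267 and 0.769 CPM) and the treated libraries 4, 1 and 8 (0.107, 0.0271 and 0.179 CPM). The groups did not overlap, and the log2 fold change was -2.17 ± 0.51 (SE, n = 3 and 3). With the oligonucleotide LXN went from 22 reads in each PBS library (0.690 and 0.677 CPM) to 10 and 8 reads (0.324 and 0.268 CPM), a log2 fold change of -1.19 ± 0.37 (SE, n = 2 and 2). When any 1 of those 4 libraries was left out, LXN no longer passed the call that chose it in that comparison. LXN reached the knockout filter only through the parental libraries and the SMYD3 siRNA table had no treated library with 10 reads of it, so in those comparisons it could enter only by being high in the control.

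RHOBTB1 stood at 0.651, 0.725 and 1.06 CPM in the parental line and at 0.0892, 0.0447 and 0.190 CPM in the knockout clone, from 17 to 41 reads and 2 to 5 reads. Every knockout library was below every parental one, with a log2 fold change of -2.70 ± 0.44 (SE, n = 3 and 3). RHOBTB1 too passed the knockout filter only through the parental libraries. With the SMYD3 siRNA it went from 3.25, 2.99 and 2.59 CPM to 0.985, 0.868 and 0.425 CPM, a log2 fold change of -1.97 ± 0.24 (SE, n = 3 and 3), and replicate 3 was the lowest treated library. With the oligonucleotide it went from 5.96 and 5.51 CPM to 2.95 and 3.28 CPM, a log2 fold change of -0.88 ± 0.14 (SE, n = 2 and 2). The groups did not overlap in either knockdown. In bulk RNA, fewer cells of a type and less RNA per cell cannot be told apart.

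**Figure D1:**
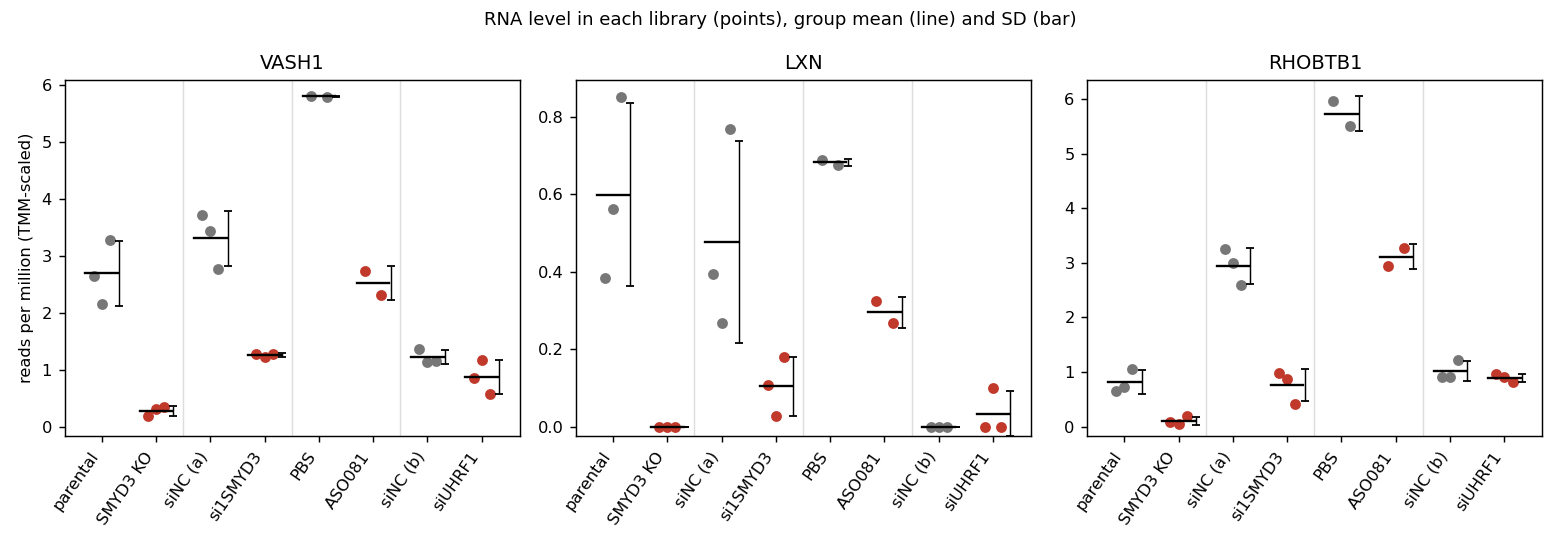
RNA level of VASH1, LXN and RHOBTB1 in each of the 22 libraries (points, TMM-scaled CPM on a linear axis), with the group mean (line) and SD (bar) and grey for controls; siNC (a) is the SMYD3-set siNC and siNC (b) the UHRF1-set siNC. All 3 genes were highest in PBS, at group means of 5.79, 0.683 and 5.73 CPM, and in the first 3 pairs of groups every treated point is below every control point.

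The depth of each fall differed among the 3 ways of lowering SMYD3. For each of the 3 genes the fitted fall was largest in the clone, next with the siRNA and smallest with the oligonucleotide. SMYD3 RNA fell least in the clone (-1.79 ± 0.13 on the log2 scale, against -2.41 ± 0.12 with the siRNA and -2.52 ± 0.12 with the oligonucleotide). SMYD3 protein was not measured here, and the RNA left in a knockout clone does not show how much protein remained. Such differences between comparisons were not tested, and the knockout values come from another scale and another test. Ranked by the smallest of the 3 falls, VASH1 was at rank 2 and LXN at rank 3 among 260 coding genes called lower in all 3 comparisons, of 12704 coding genes tested in all of them (2.05%), with SMYD3 at rank 1. RHOBTB1 was at rank 5 with -0.88. TBC1D26, at rank 4, had falls of -3.37, -2.09 and -1.07, on 6 to 21 reads summed over each treated group. Just after RHOBTB1 came TP53I11 with a smallest fall of -0.87, CDH26 with -0.86 and ITGA2B with -0.85. The median smallest fall of the 260 genes was -0.34.

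**Figure D2:**
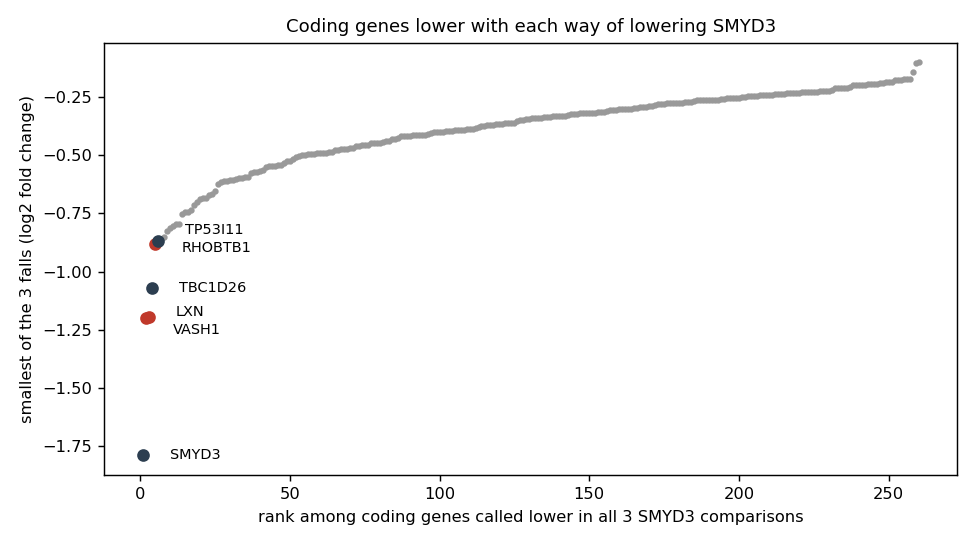
Each point is 1 of the 260 coding genes called lower in all 3 SMYD3 comparisons, placed by its rank and by the smallest of its 3 log2 fold changes, with VASH1, LXN and RHOBTB1 in red. RHOBTB1 at -0.88 and TP53I11 at -0.87 lie next to each other, so the members are not set off from the next gene by a gap.

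The UHRF1 siRNA comparison gave no called change for VASH1 or RHOBTB1, and LXN had too few reads to be tested. VASH1 went from 1.37, 1.14 and 1.15 CPM to 0.860, 1.17 and 0.575 CPM, a log2 fold change of -0.49 ± 0.27 (SE, n = 3 and 3; 95% interval -1.04 to 0.06; adjusted p = 0.116 by edgeR's quasi-likelihood test). The second treated library, at 1.17 CPM, lay inside the control range on this scale and just below it, at 1.15 against 1.16 CPM, when CPM was taken on plain library totals. Without that library the log2 fold change was -0.76, with an adjusted p of 0.0289 by edgeR, and over all 6 omissions of 1 library the adjusted p ran from 0.0289 to 0.459. RHOBTB1 stood at 0.913, 0.906 and 1.23 CPM in the control and at 0.968, 0.903 and 0.812 CPM with siUHRF1. Its groups overlapped, where 34.6% of genes had every treated library below every control, and its log2 fold change was -0.18 ± 0.28 (SE, n = 3 and 3; 95% interval -0.74 to 0.37; adjusted p = 0.576 by edgeR). These intervals leave room for a fall of up to 1.04 for VASH1 and 0.74 for RHOBTB1 on the log2 scale, so the misses do not show that either gene was unaffected. In that comparison 32.7% of 18349 genes were called lower and 32% higher.

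LXN could not be tested with siUHRF1, because it had 0 reads in all 3 control libraries and 0, 6 and 0 reads in the treated ones. A count of 0 allows up to 0.0158 CPM over that control group, whereas the other control groups averaged 0.476 to 0.683 CPM. UHRF1 itself went from 64.5 ± 1.73 to 2.22 ± 0.420 CPM (SD, n = 3 each) with its siRNA. SMYD3 was called lower there as well, at -0.57 ± 0.09 on the log2 scale (adjusted p = 3.32e-07 by edgeR). Among the other 256 shared falls with SMYD3, 104 were called lower with siUHRF1, 88 higher and 62 not called, with 2 not tested and a median of -0.05. TBC1D26 rose by 1.63 and TP53I11 fell by 4.39, so genes close to each other in the SMYD3 ranking moved in opposite directions here.

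Levels across the 8 groups can be ordered, with the limit that tables were made separately. VASH1 was highest in PBS (5.79 ± 0.0121 CPM, SD, n = 2), then in the SMYD3-set siNC (3.31 ± 0.483, n = 3), the parental line (2.69 ± 0.568, n = 3), ASO081 (2.52 ± 0.293, n = 2), si1SMYD3 (1.26 ± 0.0327, n = 3), the UHRF1-set siNC (1.22 ± 0.130, n = 3), siUHRF1 (0.869 ± 0.298, n = 3) and the knockout clone (0.277 ± 0.0869, n = 3). From the SMYD3-set siNC to ASO081 and from si1SMYD3 to siUHRF1, neighbours in that order overlapped in their libraries. VASH1 in the UHRF1-set siNC thus overlapped its level under the SMYD3 siRNA.

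RHOBTB1 was highest in PBS (5.73 ± 0.319 CPM, SD, n = 2), followed by ASO081 (3.12 ± 0.233, n = 2) and the SMYD3-set siNC (2.95 ± 0.334, n = 3), whose libraries overlapped. The UHRF1-set siNC (1.02 ± 0.185, n = 3), siUHRF1 (0.894 ± 0.0785, n = 3), the parental line (0.812 ± 0.217, n = 3) and si1SMYD3 (0.759 ± 0.295, n = 3) also overlapped, and the knockout clone was lowest (0.108 ± 0.0742, n = 3). LXN ran from 0.683 ± 0.00920 CPM in PBS (SD, n = 2) through 0.600 ± 0.237 in the parental line and 0.476 ± 0.261 in the SMYD3-set siNC (n = 3 each) to 0.296 ± 0.0400 in ASO081 (n = 2), and neighbours in that order overlapped in their libraries. Below them si1SMYD3 (0.104 ± 0.0759, n = 3) overlapped siUHRF1 (0.0334 ± 0.0579, n = 3), and LXN had no read in the UHRF1-set siNC or the knockout clone (n = 3 each). Per kilobase of exon, the PBS levels were 1.20 CPM for RHOBTB1, 0.802 for VASH1 and 0.468 for LXN. In PBS 36.6% of tested genes had a lower control level than VASH1, 36.5% a lower one than RHOBTB1 and 12.1% a lower one than LXN, so all 3 sit in the lower part of the expressed range.

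The paralogue and partners of VASH1 were read in the same 4 comparisons. VASH2, the other vasohibin, was not called with the SMYD3 siRNA (0.393 against 0.412 CPM), was not tested in the knockout or with the oligonucleotide, and fell by 3.11 on the log2 scale with siUHRF1 (0.410 against 0.0462 CPM, adjusted p = 5.43e-05 by edgeR). SVBP, the partner that vasohibins need, fell by 0.27 in the knockout (8.62 against 6.98 CPM) and was not called in the other 3 comparisons, with the siRNA at -0.24 (adjusted p = 0.0511 by edgeR). TTL, which puts the tyrosine back on α-tubulin, rose by 0.81 in the knockout, fell by 1.11 with siUHRF1 and was not called with the SMYD3 siRNA (-0.03) or the oligonucleotide (-0.15).

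The list for vasohibins, tubulin tyrosination and α-tubulin held 17 gene symbols, older and newer names of the same gene included. In the knockout 12 were tested and 5 rose and 5 fell, around a list median of 0.18 on the log2 scale (-0.02 over all genes). Over all genes 42.1% were called higher and 42.5% lower in the knockout, 24.2% and 24.4% with the SMYD3 siRNA, 11.3% and 10.3% with the oligonucleotide, and 32% and 32.7% with siUHRF1. In the knockout the largest falls of this list were TUBA1A (-2.60), an α-tubulin, AGBL2 (-2.09) and KIAA0895L (-1.53). KIAA0895L was also called lower with the SMYD3 siRNA (-0.28). It was not called with the oligonucleotide (-0.003) and was called higher with siUHRF1 (0.22). With the SMYD3 siRNA 3 of 14 rose and 6 fell (median -0.21), led by TUBA4A at -1.50 and by AGBL4 at 1.25, and with the oligonucleotide 2 of 13 rose and 2 fell (median -0.10). TUBA1A also fell by 0.46 with the SMYD3 siRNA and by 0.50 with the oligonucleotide, which puts it at rank 73 of the 260 shared falls, and it rose by 0.76 with siUHRF1. AGBL2 rose by 0.90 with the SMYD3 siRNA. With siUHRF1 4 of 14 rose and 7 fell (median -0.08), among them TUBA1B at -1.98. The α-tubulin genes are near-identical in sequence, so how reads were split among them is uncertain. Upper quartile scaling turned the knockout median of this list to -0.10 and its split to 5 higher and 6 lower, and gave 2 higher and 7 lower with the SMYD3 siRNA.

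The next list held 17 ligands, receptors and inhibitors of blood vessel growth, the process VASH1 is named for. In the knockout 9 of 13 rose and 3 fell (42.1% and 42.5% over all genes), with a median of 0.65. THBS1, an inhibitor of vessel growth, rose from 332 ± 10.8 to 2710 ± 114 CPM (SD, n = 3 each), and VEGFC, a ligand for lymphatic vessels, from 8.55 ± 0.410 to 43.7 ± 1.00 CPM (SD, n = 3 each). Under the SMYD3 siRNA 4 of 14 rose and 3 fell (24.2% and 24.4% over all genes). There VEGFC rose by 0.74 and COL18A1, the source of endostatin, fell by 0.80. COL18A1 fell in the other 3 comparisons too, by 2.01 in the knockout, 0.37 with the oligonucleotide and 0.76 with siUHRF1, and it stood at rank 116 of the 260 shared falls. With the oligonucleotide 5 of 13 rose and 1 fell (11.3% and 10.3% over all genes). ANGPTL4 was up by 1.60 there and TNFSF15, an inhibitor of vessel growth, by 0.87. With siUHRF1 2 of 14 rose and 10 fell (32% and 32.7% over all genes), with ANGPTL4 at -2.50 and PGF at -1.75. ANGPTL4 also rose by 3.70 in the knockout. Genes higher made up 49.7% of all knockout calls, and 37% with upper quartile scaling. There this list held 8 higher and 4 lower (31.4% and 53.5% over all genes). With upper quartile factors the list held 4 higher and 4 lower with the SMYD3 siRNA and 5 and 2 with the oligonucleotide.

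Since VASH1 is known from endothelial cells, the 6 endothelial markers were read beside it. The knockout comparison has values for 2 of the 6, and they summed to 4.50 to 5.59 CPM in the parental line and 1.10 to 1.90 in the clone. In the SMYD3 siRNA comparison the 6 summed to 13.4 to 15.3 CPM in the control and 7.75 to 8.03 in treated cells, and with the oligonucleotide to 9.44 to 10.1 and 9.79 to 10.0. With siUHRF1 the sum was 10.1 to 10.8 CPM in the control and 28.0 to 29.4 in treated cells. CDH5 made up most of each sum and went from a mean of 11.3 to 4.27 CPM with the SMYD3 siRNA, where PECAM1 went the other way, from 0.747 to 1.94 CPM. CLDN5 was at 0 in every library of the 3 tables that list it. The sum was lower in 2 of the 3 comparisons where VASH1 was lower, level with the oligonucleotide and higher with siUHRF1, and its part in VASH1 was not tested.

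Markers of fibroblasts and leukocytes also differed between groups. The knockout comparison has values for 2 of 6 fibroblast markers, COL1A1 and LUM, which summed to 55.1 to 59.1 CPM in the parental line and 13.3 to 14.9 in the clone. The 6 summed to 127 to 153 CPM in the SMYD3-set siNC and 214 to 253 with si1SMYD3, and to 109 to 112 in PBS and 87.2 to 105 with ASO081. With siUHRF1 they went from 98.1 to 99.6 CPM up to 495 to 569, mostly COL1A1, while DCN, COL1A2, COL3A1 and PDGFRA averaged below 1 CPM in every group of the 3 tables that list them. Leukocyte markers, 3 of 6 with values in the knockout comparison, summed to 44.4 to 46.9 CPM in the parental line and 310 to 326 in the clone, where CD68 went from 40.8 to 317 CPM and CD14 from 2.72 to 0.317. Their sums were 12.8 to 14.4 CPM and 14.8 to 17.7 with the SMYD3 siRNA, 6.77 to 8.12 and 8.23 to 8.92 with the oligonucleotide, and 3.90 to 4.81 and 11.1 to 12.6 with siUHRF1, control first. CD68 made up most of the sum in the knockout comparison, parental line included. In the groups of the other 3 comparisons it averaged only 0.694 to 1.36 CPM. PTPRC averaged below 1 CPM in every group of the 3 tables that list it. The fibroblast sum was lower with the members in the clone and higher with the SMYD3 siRNA, and the part of these markers in the members' values was not tested.

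**Figure D3:**
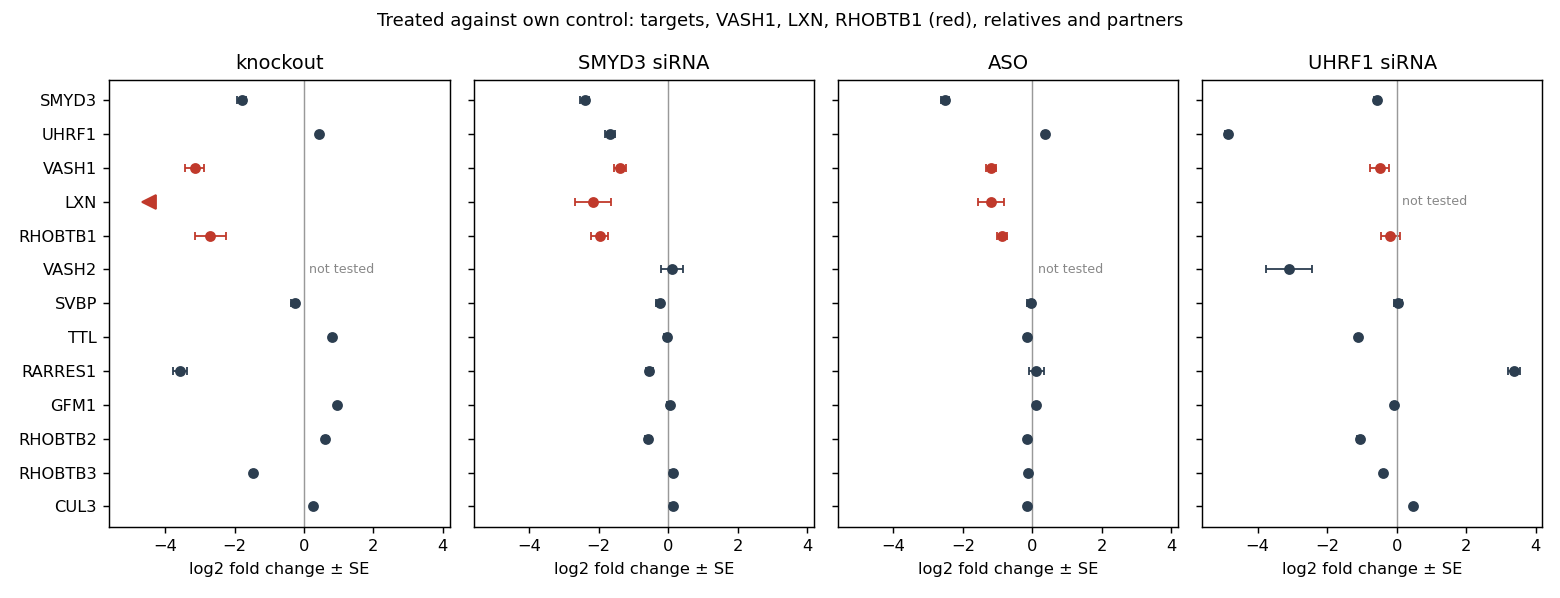
Log2 fold change with its SE for SMYD3, UHRF1, the 3 members (red), and their relatives and partners, 1 panel for each comparison; the left-pointing triangle is the bound for LXN in the knockout (at least 21.9-fold lower) and 2 genes are marked where they were not tested. The members were chosen for their falls in the first 3 panels, so their place left of 0 there is set by the choice. The relatives were not chosen by that rule and lie on both sides: RARRES1 is at -3.56 in the knockout and at 3.37 with siUHRF1.

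RARRES1, the relative of LXN that lies 24.2 kb upstream of it on the same strand, fell from 3.73 ± 0.276 to 0.282 ± 0.0267 CPM in the knockout (SD, n = 3 each). It fell by 0.54 with the SMYD3 siRNA, was not called with the oligonucleotide (0.11 ± 0.21, adjusted p = 0.748 by edgeR) and rose by 3.37 with siUHRF1, from 0.655 ± 0.0917 to 6.79 ± 1.35 CPM (SD, n = 3 each). RARRES1 was thus the relative with the widest spread of responses, while its own control level ran from 0.655 CPM in the UHRF1-set siNC to 14.5 CPM in the SMYD3-set siNC. GFM1, a mitochondrial elongation factor on the opposite strand, shares 45 exon bases with LXN, which are 3.08% of the exon bases of LXN. GFM1 rose by 0.95 in the knockout, to 110 ± 5.87 CPM (SD, n = 3), in the libraries where LXN had 0 reads, and it was not called in the other 3 comparisons.

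A further list held the LXN relative and metallocarboxypeptidases, 18 genes in all. Whether latexin inhibits each of these enzymes was not measured. In the knockout 2 of 7 rose and 3 fell (42.1% and 42.5% over all genes). CPE, which trims prohormones, fell by 2.61 there, and CPD, a carboxypeptidase of the secretory route, rose by 0.81. Under the SMYD3 siRNA 4 of 8 rose and 3 fell (24.2% and 24.4% over all genes). There CPA4 rose by 1.63, from 6.65 to 20.7 CPM, with CPD up by 1.55. With the oligonucleotide 0 of 7 rose and 4 fell (11.3% and 10.3% over all genes). The same CPA4 fell by 0.60 there and CPD by 0.47. With siUHRF1 2 of 7 rose and 4 fell (32% and 32.7% over all genes), with CPM, a membrane carboxypeptidase, at -2.35. The carboxypeptidases CPA4 and CPD therefore moved in opposite directions under the siRNA and the oligonucleotide, a difference that was not tested, while LXN was lower under both.

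RHOBTB2 and RHOBTB3 are the paralogues of RHOBTB1. RHOBTB2 rose by 0.62 in the knockout, fell by 0.57 with the SMYD3 siRNA and by 1.05 with siUHRF1, and was not called with the oligonucleotide (-0.15). RHOBTB3 fell by 1.47 in the knockout, from 378 ± 10.3 to 134 ± 7.19 CPM (SD, n = 3 each), and by 0.40 with siUHRF1, and was not called with the SMYD3 siRNA (0.14) or the oligonucleotide (-0.11). CUL3, the ligase that RHOBTB1 binds, rose by 0.27 in the knockout as deposited but stood at -0.020 with upper quartile scaling. With siUHRF1 CUL3 rose by 0.48, and it was not called with the SMYD3 siRNA (0.13) or the oligonucleotide (-0.16, adjusted p = 0.0537 by edgeR).

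The RHOBTB1 list held 25 genes, namely paralogues of RHOBTB1, the CUL3 ligase, its regulators and its adaptors. In the knockout 18 of 24 rose and 6 fell (42.1% and 42.5% over all genes). With upper quartile scaling 11 rose and 7 fell (31.4% and 53.5% over all genes). KLHL21, a CUL3 adaptor of cell division, rose by 2.17 in the knockout as deposited. In the SMYD3 siRNA comparison 10 of 24 rose and 3 fell (24.2% and 24.4% over all genes). KCTD10, another adaptor, was among those that rose, at 0.64. With the oligonucleotide 3 of 25 rose and 3 fell, near the shares over all genes (11.3% and 10.3%), with the adaptor KLHL13 at -1.09. With siUHRF1 13 of 24 rose and 4 fell (32% and 32.7% over all genes), with LRRC41 at 0.82. With upper quartile factors the split was 8 higher and 5 lower for the SMYD3 siRNA and 3 higher and 6 lower for the oligonucleotide.

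Genes within 500 kb of the 3 members were followed as a separate list. In the knockout 3 of 13 rose and 8 fell, where 42.1% of all genes were called higher and 42.5% lower. With the SMYD3 siRNA 5 of 22 rose and 5 fell (24.2% and 24.4% over all genes). With the oligonucleotide 1 of 24 rose and 6 fell (11.3% and 10.3% over all genes). With siUHRF1 7 of 23 rose and 7 fell (32% and 32.7% over all genes). Of 12 neighbours tested in all 3 SMYD3 comparisons, 0 were called lower in all 3. Around VASH1, TMEM63C, a membrane channel gene, fell by 3.39 in the knockout and by 0.68 with the oligonucleotide, but was not called with the SMYD3 siRNA (0.23, adjusted p = 0.142 by edgeR). ANGEL1, 3.16 kb beyond the end of VASH1, fell by 0.47 with the oligonucleotide and rose by 0.34 in the knockout. Near RHOBTB1, ANK3, an ankyrin that anchors membrane proteins, fell by 2.23 in the knockout and by 0.40 with the oligonucleotide and was at -0.16 with the SMYD3 siRNA, where it was not called. CDK1, the mitotic kinase on the same side of RHOBTB1, fell by 1.14 with the SMYD3 siRNA and by 3.38 with siUHRF1.

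**Figure D4:**
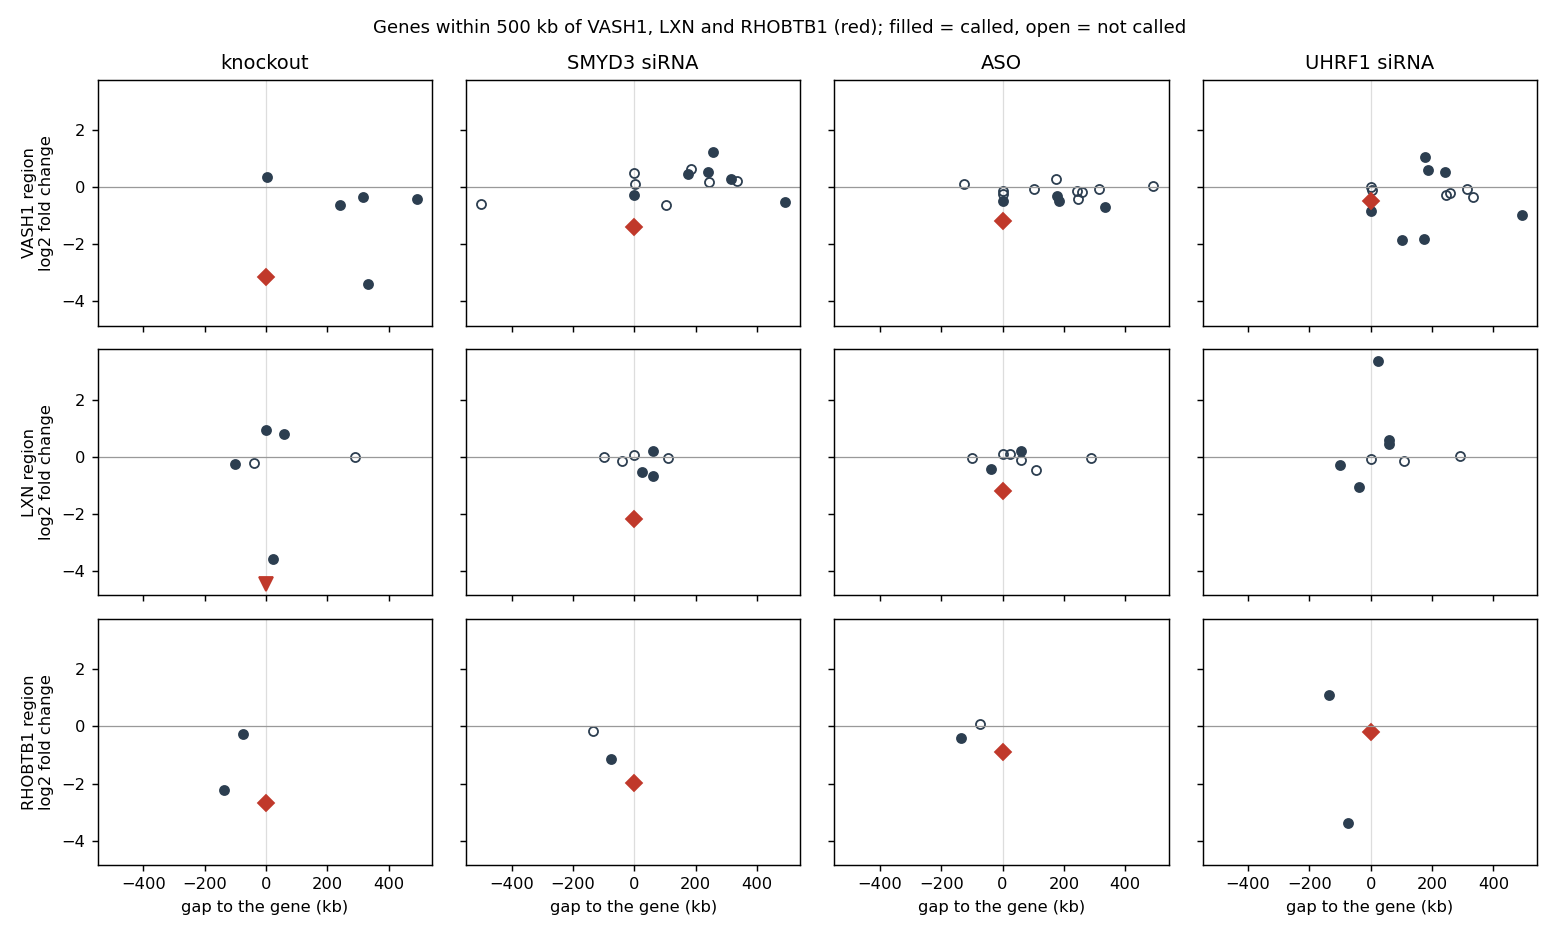
Log2 fold change of genes within 500 kb of VASH1, LXN and RHOBTB1 (rows) in the 4 comparisons (columns), against the gap to the member in kb, negative toward lower coordinates; filled points were called, open points were not, red marks the member and the triangle is the bound for LXN. The members were chosen for their falls in the first 3 columns, so their low place there is set by the choice, and in the knockout TMEM63C (-3.39) still lies below VASH1 (-3.14).

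Some reads in these regions cannot be assigned with certainty, since the counting is not stated to use strand. VASH1 shares 1044 of its 7223 exon bases (14.5%) with VASH1-AS1 and 324 with AF111169.3, both on the opposite strand, and 721 (9.98%) with AF111169.1 on the same strand. VASH1-AS1 was at -0.27 ± 0.09 with the SMYD3 siRNA (called lower), at -0.25 ± 0.11 with the oligonucleotide (not called) and at -0.85 ± 0.12 with siUHRF1 (called lower). Its falls with the SMYD3 siRNA and the oligonucleotide were thus smaller in value than those of VASH1, a difference that was not tested.

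UHRF1 and CDK1, which follow cell division, differed among the control groups. CDK1 averaged 199 ± 3.06 CPM in the parental line (SD, n = 3), 167 ± 3.57 in PBS (n = 2), 121 ± 5.50 in the UHRF1-set siNC (n = 3) and 22.2 ± 6.11 in the SMYD3-set siNC (n = 3). UHRF1 was 129 ± 0.766, 45.7 ± 1.34, 64.5 ± 1.73 and 9.82 ± 1.39 CPM in the same order. In the SMYD3 siRNA comparison, where the members fell, UHRF1 also fell by 1.68, whereas it rose by 0.44 in the knockout and by 0.36 with the oligonucleotide. The members were therefore lower both where UHRF1 RNA was lower and where it was higher, and its part in their levels was not tested.

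Across the 22 libraries, each expressed as log2(CPM + 1) minus the mean of its own control group, the 3 members followed each other with Pearson's r of 0.892 for VASH1 and LXN, 0.814 for VASH1 and RHOBTB1 and 0.748 for LXN and RHOBTB1. These are descriptions, since the members were chosen for falling together and libraries of a comparison share controls and depth. Of 11680 other genes with a mean of 1 CPM or more in every table, CHST6 (0.939), CCDC153 (0.939) and EBF4 (0.938) were most like VASH1. CCDC167 (0.927), ZNF487 (0.915) and TCEAL4 (0.914) were most like LXN, and ANKRD36C (0.921), CHST6 (0.911) and BEND7 (0.909) most like RHOBTB1. On plain library totals MAST2 (0.955) was most like VASH1 and DUSP3 (0.966) most like RHOBTB1, so these top places depend on the scaling, whereas CCDC167 remained first for LXN.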

How the data were processed

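RNA was sequenced from 22 libraries in 8 groups. Per the submitters' processing notes, the hg38 build, bcl2fastq and Bowtie were used, while the counting tool is not given in the sources used here. Whole-number counts per gene were deposited for the siRNA and oligonucleotide comparisons. Knockout values were deposited as a signal, in which each library's counts had been scaled by its own factor. Dividing by each column's smallest step gave whole reads for 100% of values within 0.01; edgeR on those reads served as an alternative. Exon lengths per gene are as deposited.

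Counts were fitted with edgeR 4.0.16 (filterByExpr, TMM, robust quasi-likelihood test), and knockout values with limma 3.58.1 on log2(value + 1) for genes with 10 or more in at least 3 libraries, in R 4.3.3, two-sided, each comparison alone. Adjusted p is Benjamini-Hochberg over all genes tested, and under 0.05 is called. CPM uses TMM-scaled totals. Levels were first taken on plain totals, and the change was made after both sets of values were seen. The reason was that plain totals put 38.1% of genes below and 19.2% above their controls with the SMYD3 siRNA, where calls were even. Those calls themselves used TMM factors, and upper quartile factors gave 4171 higher and 5105 lower. On plain totals the shares below and above were 50.5% and 35.3% in the knockout. They were 40.4% and 21.6% with the oligonucleotide and 38.6% and 29.8% with siUHRF1. Among the members only VASH1 with siUHRF1 changed in whether its groups overlapped, and it is given on both scales. Alternatives were DESeq2 1.42.0, upper quartile scaling, no filter, other pseudocounts, a replicate block and leaving out each library. Scripts were tested on simulated data. The labels do not say that replicates came from separate cultures, so p-values measure the spread between these libraries. Limits for a count of 0 cover counting error only.

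The members and gene lists were chosen with earlier results of these data known. Named genes are the members, SMYD3, UHRF1, fixed relatives and partners, the 3 called genes with the largest change in each list and comparison (not all are described, and 1 list is not reported here), the next 3 genes in the ranking and the 3 genes most like each member. TBC1D26, MAST2, DUSP3 and VASH1-AS1 were named after their values were seen. Positions of neighbours are from GENCODE 29.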

Additional observations from a re-analysis of the deposited data

Results flagged for a closer look

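UHRF1 RNA moved in opposite directions in the 3 SMYD3 comparisons: every knockout library was above every parental one (0.44 on the log2 scale) and both oligonucleotide libraries were above both PBS libraries (0.36), whereas every SMYD3 siRNA library was below every control library (-1.68). RHOBTB2 likewise was higher in every knockout library (0.62) and lower in every SMYD3 siRNA library (-0.57). The differences between comparisons were not tested, and the controls differ between the tables.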

How the results depend on the processing

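The direction of VASH1, LXN and RHOBTB1 in the 3 SMYD3 comparisons held under every setting that gave a value. In the knockout, a pseudocount of 5 gave -2.71 for VASH1, -2.25 for LXN and -1.89 for RHOBTB1, a pseudocount of 0.5 gave -5.26 for LXN, and edgeR on recovered reads gave -7.42 for LXN, against a fitted -4.30 that is no bound because the clone had no reads. With upper quartile scaling CUL3 (-0.020) and KLHL9 (-0.11) changed sign in the knockout. Without any 1 parental library LXN and RHOBTB1 failed the knockout filter and gave no value. Leaving out each library in turn gave -2.82 to -1.61 for LXN and -2.20 to -1.64 for RHOBTB1 with the SMYD3 siRNA, and -1.32 to -1.09 for VASH1 and -1.34 to -1.06 for LXN with the oligonucleotide, where a lone library is assumed to vary like the rest. LXN passed the oligonucleotide call in 0 of those 4 fits, and DESeq2 gave it no adjusted p. With siUHRF1, omissions gave -0.76 to -0.26 for VASH1, called only without siUHRF1 replicate 2.

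With DESeq2 the oligonucleotide calls were 1378 higher and 1055 lower, against 2068 and 1880. Replicate numbers are not stated to pair the libraries. Same-numbered deviations correlated at 0.24, 0.24 and -0.01 with the SMYD3 siRNA, 0.12 with the oligonucleotide and between -0.09 and 0.05 elsewhere. Different-numbered ones correlated between -0.29 and 0.10 with the SMYD3 siRNA, at -0.12 with the oligonucleotide and between -0.10 and 0.07 elsewhere. The replicate block gave 3477 higher and 3296 lower calls with the oligonucleotide, and changed no call of a member that was tested with siUHRF1. The count of 260 shared falls became 54 with a fall of at least 0.5 in each, 155 with DESeq2 and 433 with the replicate block for the oligonucleotide, and 149 to 309 over the omissions, the lowest without PBS replicate 1; these settings were added after seeing the data, apart from the first. Over all settings of the other named genes, 2121 values kept their side of the threshold, 56 lost it, 34 gained it and 2 changed sign.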
